A study of Mus musculus with 30 samples.

Results

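Excitation-contraction coupling is the step by which an electrical signal at the muscle cell surface becomes a release of calcium from the sarcoplasmic reticulum, the calcium store. The 10 genes described here encode the voltage sensor, the release channel, the pumps, the calcium-binding proteins of the store and the proteins that hold these parts together: Ryr1, Cacna1s, Cacnb1, Atp2a1, Atp2a2, Casq1, Casq2, Trdn, Jph1 and Jsrp1. They were chosen by symbol out of 16025 genes in the count table, and all 10 were found and passed the filter on low counts, which left 12184 genes. RNA had been sequenced from myotubes of C2C12, a mouse myoblast line that fuses into multinucleated muscle cells when serum is lowered. The 10 groups held 3 libraries each. All cells were wild type C2C12.

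The vehicle group is called control. D-galactose, a sugar with which cell ageing is modelled in culture, was used at 20 mg/mL for 24 h (Dgal). The preparations came from Korean Red Ginseng: the extract made with water (RGW), the fraction that holds the saponins (SFr) and the non-saponin fraction (NSFr), each at 100 µg/mL, and ginsenoside Rb2, a purified saponin, at 20 µM. Each was given for 12 h alone, or for 12 h before the 24 h of D-galactose (RGW_Dgal, SFr_Dgal, NSFr_Dgal, Rb2_Dgal). The labels do not say when the control cultures and those with a preparation alone were harvested, so the groups compared may also differ in culture time. The design text calls the libraries biological replicates without naming separate cultures, so the p-values measure the spread between these libraries, in 1 cell line.

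In skeletal muscle the voltage sensor sits in the transverse tubule, a fold of the surface membrane, and touches the ryanodine receptor of the sarcoplasmic reticulum. When the sensor moves, the receptor opens and calcium floods out onto the contractile filaments. Pumps of the SERCA family then return the calcium to the store, where calsequestrin binds it until the next release.

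Libraries held 22209306 to 30218420 counts. The members were well covered, from 1502 counts for Trdn in its lowest library to 76868 for Atp2a2 in its highest. The myotube label was checked against 9 marker genes, whose summed level ranged from 18776 to 23902 CPM (counts scaled to library size) over the 30 libraries. Myog, a transcription factor of muscle differentiation, lay between 743.1 and 1312 CPM. Summed markers of fat cells stayed at or under 0.2387 CPM and those of endothelial and blood cells at or under 0.5293 CPM. Summed fibroblast markers were at 5779 to 7376 CPM, nearly all of it Col3a1 (5620 to 7217 CPM). Libraries of a group also differed in how many counts went to genes with long transcripts, which bears on Ryr1 and is described with it.

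Levels can be compared between genes only after division by transcript length. Per kilobase of the longest annotated transcript, the mean over all 30 libraries was 520 CPM for Casq2 and 514 CPM for Atp2a1, followed by 347 for Atp2a2, 173 for Casq1, 132 for Jsrp1 and 111 for Cacnb1. The voltage sensor Cacna1s stood at 69.9 CPM per kilobase and the release channel Ryr1 at 67.3. Jph1 had 29.3 and Trdn 15.9. Casq2 is best known as the calsequestrin of heart and slow muscle, and Casq1 as that of fast muscle. The heart muscle markers Nppa, Myl7 and Tbx5 were at or under 0.2333, 0.04421 and 0.04061 CPM in every library. The other 3 of the 6 heart markers were detected in every library: Nppb at 0.1728 to 0.8924 CPM, Nkx2-5 at 0.4061 to 1.349 CPM and Myh6 at 16.74 to 49.89 CPM. The length of the transcripts actually used in these cells was not measured, so the order between genes rests on the annotation.

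**Figure D1:**
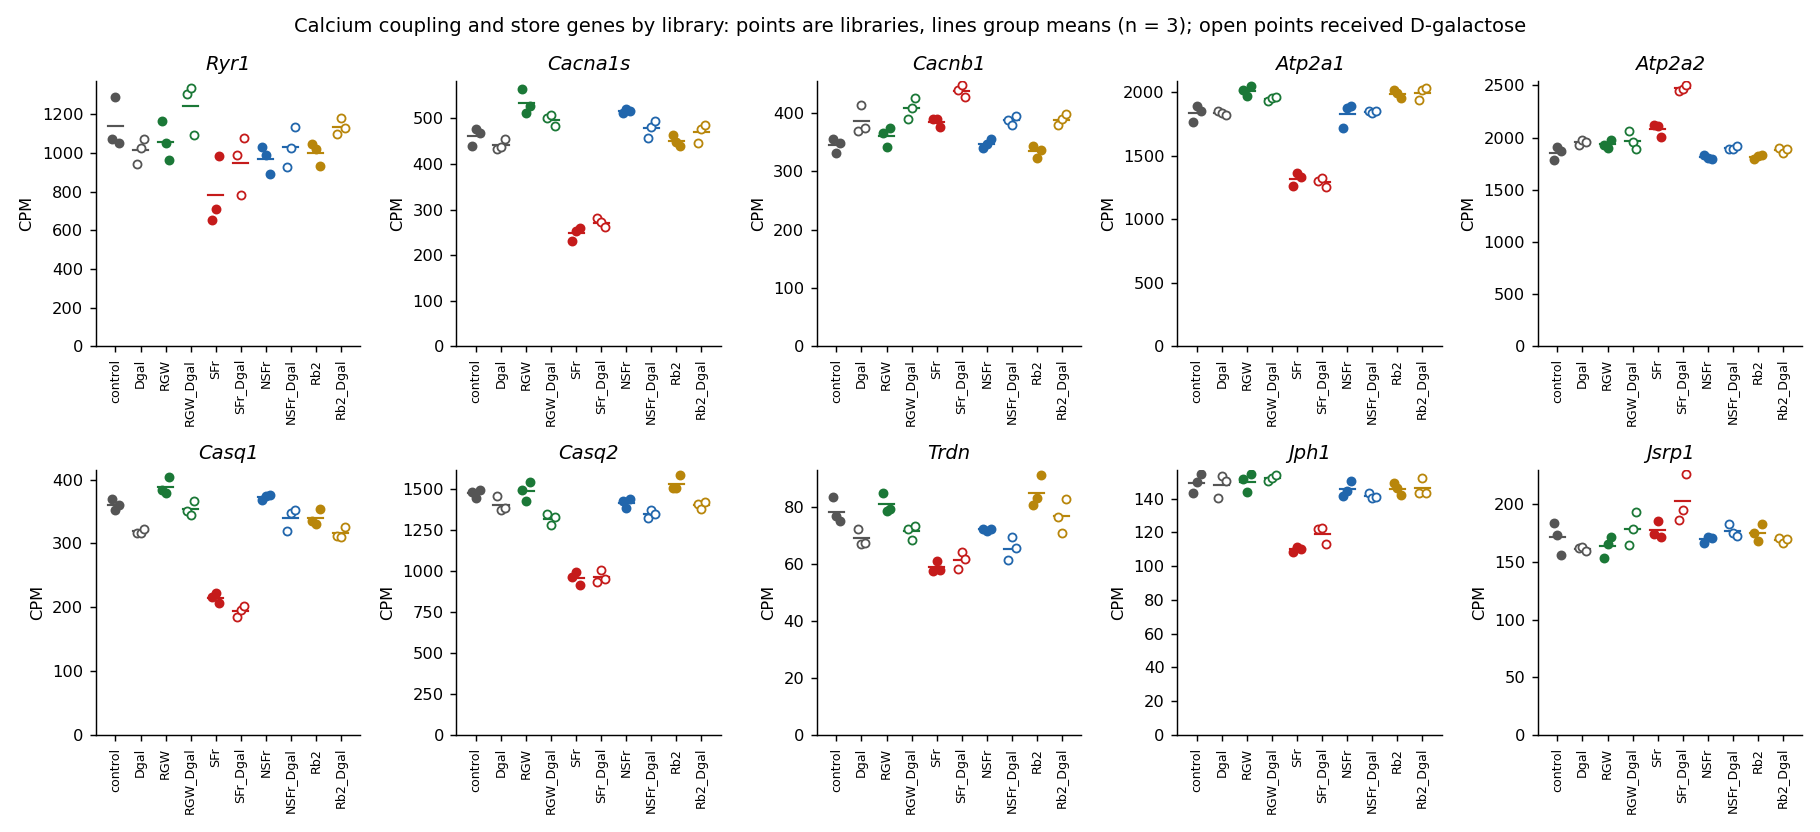
Expression of the 10 genes in every library. The y axis of each panel is CPM from 0, the x axis holds the 10 groups, points are libraries, lines are means of 3 libraries and open points received D-galactose. The 6 libraries with the saponin fraction lie below the other 24 for Cacna1s, Atp2a1, Casq1, Casq2 and Jph1, and the Ryr1 points spread most within groups.

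The question of what each preparation did by itself is answered by comparing it with control. The saponin fraction lowered much of this gene set: 7 of the 10 genes fell and 2 rose, with Jsrp1 not passing the test (edgeR quasi-likelihood test, adjusted p under 0.05). Over all genes tested, 43.1% were called, 21.8% lower and 21.3% higher. Groups did not overlap for 9 of the 10 genes and for 50.2% of all genes tested. The median log2 fold change was -0.46 over the 10 genes and 0.00050 over all genes tested. In bulk RNA, fewer cells of a type and less RNA per cell cannot be told apart.

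Cacna1s, the pore and voltage-sensing subunit of the muscle calcium channel, fell most. Its control libraries held 440.2, 477.8 and 467.1 CPM and its SFr libraries 232, 252.2 and 260 CPM. The groups did not overlap, and the SFr mean was 0.537 times the control mean (log2 fold change -0.90 ± 0.043 (SE), adjusted p = 2.81e-18). The gene (ENSMUSG00000026407.17) spans 136052750 to 136119822 on the plus strand of chromosome 1 in GRCm38. Cacnb1 (ENSMUSG00000020882.17), the beta subunit that carries the channel to the membrane, moved the other way. It had 355.4, 331.2 and 348.3 CPM in control and 389.5, 390.2 and 376.7 CPM in SFr, a small rise with no overlap (0.16 ± 0.041, adjusted p = 0.00179).

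Both calsequestrins fell. Casq1 (ENSMUSG00000007122.11, chromosome 1, 172209894 to 172219868, minus strand) went from 369.9, 351.7 and 360.7 CPM to 216.5, 222.7 and 206.4 CPM. Every SFr library lay well under every control library (-0.75 ± 0.04, adjusted p = 3.94e-17). Casq2 (ENSMUSG00000027861.13, chromosome 3, 102086415 to 102146514, plus strand) went from 1478, 1447 and 1495 CPM to 962.7, 992.8 and 914 CPM. Its groups were also apart, by less on the log2 scale (-0.62 ± 0.036, adjusted p = 4.28e-16).

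The pumps split. Atp2a1, which encodes SERCA1, the pump of fast muscle, had 1760, 1889 and 1850 CPM in control and 1264, 1364 and 1328 CPM in SFr. This fall of 0.47 on the log2 scale (SE 0.035, adjusted p = 1.79e-13) left no overlap. Atp2a2 encodes SERCA2, in a form of slow and heart muscle and a form found in most cells, which a count per gene does not separate. It rose slightly, from 1788, 1908 and 1871 CPM to 2119, 2112 and 2005 CPM (0.16 ± 0.031, adjusted p = 5.66e-05). Atp2a1 (ENSMUSG00000030730.12) lies on chromosome 7 at 126445858 to 126463108 and Atp2a2 (ENSMUSG00000029467.15) on chromosome 5 at 122453513 to 122502225, both on the minus strand.

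Among the proteins that hold the junction together, Jph1 and Trdn fell and Jsrp1 did not pass the test. Jph1, a junctophilin that ties the reticulum to the transverse tubule, had 143.1, 149.8 and 154.6 CPM in control and 108.3, 111.1 and 110.4 CPM in SFr (-0.44 ± 0.039, adjusted p = 1.67e-11). The 3 SFr values are tightly grouped and well under control. Trdn, or triadin, which anchors calsequestrin beside the release channel, had 83.37, 76.65 and 74.93 CPM against 57.46, 61.13 and 58.03 CPM (-0.41 ± 0.055, adjusted p = 1.47e-07). Jsrp1, whose product JP-45 binds the voltage sensor and calsequestrin, had 184, 173.1 and 156.4 CPM in control and 174.1, 185.7 and 171.9 CPM in SFr. The groups overlap, and the difference of 0.049 has an approximate 95% interval (1.96 standard errors) of -0.071 to 0.17 (adjusted p = 0.556). Jph1 (ENSMUSG00000042686.5) lies on chromosome 1 at 16964560 to 17097889, minus strand. Trdn (ENSMUSG00000019787.9) and Jsrp1 (ENSMUSG00000020216.13) lie on chromosome 10, at 33080554 to 33476709 (plus strand) and 80808496 to 80813498 (minus strand).

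The same comparison with D-galactose present, SFr_Dgal against Dgal, shares no library with the one above. Of the 10 genes, 6 fell and 3 rose, while over all genes tested 41.3% were called, 21.0% lower and 20.3% higher. Groups did not overlap for 9 of the 10 genes and for 46.8% of all genes tested. Casq1 fell from 316.8, 316.7 and 322.9 CPM in Dgal to 185.2, 195.5 and 201.6 CPM in SFr_Dgal (-0.72 ± 0.04, adjusted p = 1.61e-16). Cacna1s went from 433.7, 438.2 and 455.1 CPM to 280.8, 272.9 and 261.1 CPM (-0.70 ± 0.043, adjusted p = 2e-15). Neither gene's groups overlap. Casq2 had 1454, 1372 and 1382 CPM against 932.1, 1007 and 951.7 CPM (-0.54 ± 0.036), Atp2a1 fell by 0.51 on the log2 scale and Jph1 by 0.31, with adjusted p of at most 4.34e-08 for these 3 genes. Trdn fell by 0.17 (adjusted p = 0.0144), a call lost without Dgal replicate 1 (adjusted p = 0.0866) or SFr_Dgal replicate 1 (0.0729).

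The rises with D-galactose present were in Atp2a2, Jsrp1 and Cacnb1. Atp2a2 reached 2450, 2465 and 2505 CPM in SFr_Dgal against 1928, 1973 and 1956 CPM in Dgal (0.34 ± 0.031, adjusted p = 5.29e-11). Those 3 libraries are the highest of all 30. Jsrp1 had 185.9, 195.1 and 226.2 CPM against 162.3, 162.5 and 159.6 CPM (0.33 ± 0.061, adjusted p = 9.26e-05). Cacnb1 had 438.7, 448.6 and 427.5 CPM against 368.4, 414 and 374.2 CPM (0.18 ± 0.041, adjusted p = 0.000431). The median over the 10 genes was -0.24, against -0.0055 over all genes tested.

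**Figure D2:**
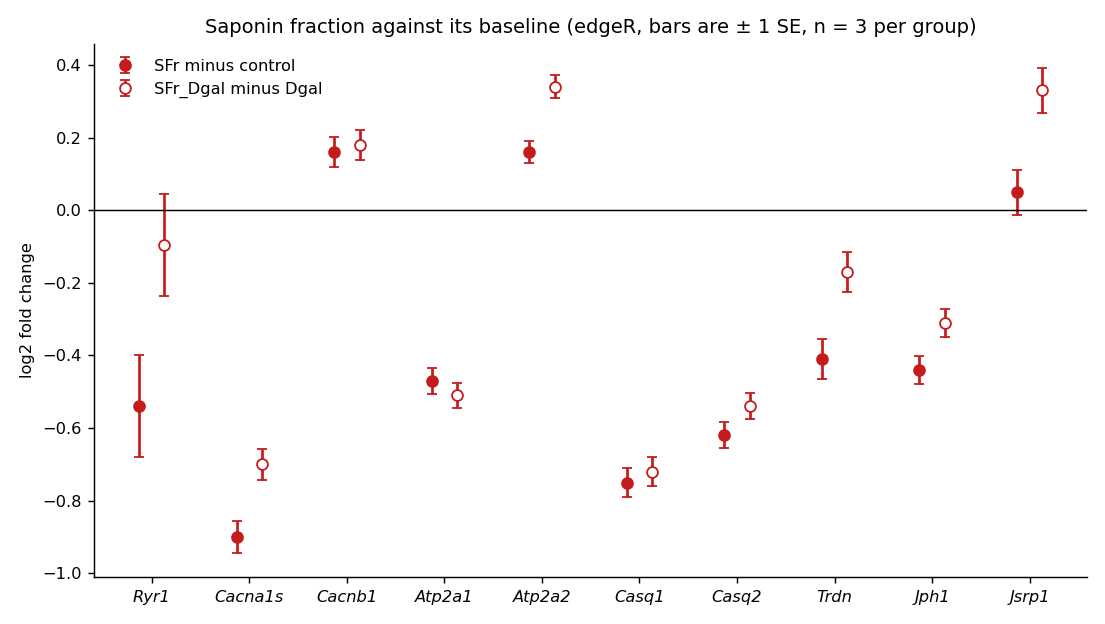
Log2 fold change of the 10 genes for SFr minus control (filled) and SFr_Dgal minus Dgal (open), with bars of 1 standard error from edgeR and 3 libraries per group. Casq1, Cacna1s, Casq2, Atp2a1, Jph1 and Trdn lie below 0 and Cacnb1 and Atp2a2 above 0 in both comparisons, and Ryr1 has the widest bars.

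Markers of the myotube itself moved with these falls. Of all genes tested, 21.8% were called lower and 21.3% higher in SFr, and 21.0% and 20.3% in SFr_Dgal. Of 9 myotube markers, 7 fell and 1 rose (Des, desmin) in SFr, with a median of -0.43, and their summed level was 18776 to 19714 CPM against 22520 to 23177 CPM in control. In SFr_Dgal 5 fell and 1 rose, with a median of -0.16 and sums of 20349 to 21348 CPM against 22010 to 22321 CPM in Dgal. Of 8 markers of myoblasts and dividing cells, 7 fell in each of these comparisons. Their sum was 119.4 to 133.5 CPM in SFr, 225.2 to 234.7 CPM in control, 94.11 to 102.1 CPM in SFr_Dgal and 137.3 to 146.1 CPM in Dgal. Of 5 fibroblast markers, 4 rose in SFr and 3 in SFr_Dgal, with sums of 6280 to 6790 CPM in SFr against 5877 to 6276 CPM in control. The fibroblast sums of SFr_Dgal and Dgal overlapped, at 5981 to 6389 and 5843 to 6264 CPM. Nearly all of the fibroblast sums was Col3a1, at 5620 to 7217 CPM over the 30 libraries. The 6 heart markers summed to 18.01 to 19.65 CPM in SFr against 35.77 to 41.02 CPM in control, and to 21.56 to 23.98 CPM in SFr_Dgal against 29.44 to 36.59 CPM in Dgal, nearly all of it Myh6. The part of these markers' cells in the falls of the calcium genes was not tested.

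Several of the genes that fell together have a listed promoter, so their upstream sequence is shown with the E-box CANNTG, the letters that muscle regulatory factors of the MyoD family can bind, in capitals. The sequences are RefSeq's on GRCm38.p6, read 5′ to 3′ in the direction of the gene, and stop before the first annotated transcribed base. Cacna1s (chr1:136052561-136052749, plus strand), Casq1 (chr1:172219896-172220145, minus strand), Casq2 (chr3:102086165-102086414, plus strand) and Atp2a1 (chr7:126463109-126463323, minus strand) read as follows.
Cacna1s: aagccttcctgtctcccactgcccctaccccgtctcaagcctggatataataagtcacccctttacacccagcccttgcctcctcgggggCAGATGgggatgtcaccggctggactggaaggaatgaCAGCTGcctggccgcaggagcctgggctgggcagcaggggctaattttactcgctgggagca
Casq1: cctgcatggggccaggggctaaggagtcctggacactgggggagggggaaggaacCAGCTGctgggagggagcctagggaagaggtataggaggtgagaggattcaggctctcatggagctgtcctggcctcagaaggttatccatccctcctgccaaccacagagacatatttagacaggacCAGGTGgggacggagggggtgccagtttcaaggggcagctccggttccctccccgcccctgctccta
Casq2: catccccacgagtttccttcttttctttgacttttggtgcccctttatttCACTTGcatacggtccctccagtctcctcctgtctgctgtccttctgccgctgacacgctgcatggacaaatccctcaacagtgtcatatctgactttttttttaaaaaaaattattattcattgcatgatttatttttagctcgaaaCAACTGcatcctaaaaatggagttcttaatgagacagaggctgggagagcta
Atp2a1: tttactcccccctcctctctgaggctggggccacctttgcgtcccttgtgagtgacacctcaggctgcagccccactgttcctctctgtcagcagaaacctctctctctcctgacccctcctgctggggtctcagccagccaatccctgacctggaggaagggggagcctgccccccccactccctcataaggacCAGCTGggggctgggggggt
RefSeq's table matched 6 of the 10 genes, with 7 promoters, each searched on both strands over the 250 bases before the listed start. Cacna1s, Casq1 and Casq2 held 2 E-boxes each, Atp2a1 held 1 and Ryr1 held 0. Cacnb1 held 1 in one of its listed promoters and 0 in the other. An E-box occurs in 66.2% of all 32851 listed promoters of this length, so its presence does not set these genes apart. The MEF2 and CArG motifs of muscle promoters were each searched as a fixed pattern, narrow for MEF2 (in 0.508% and 1.47% of all). Neither pattern was in any of the 7, nor was TATAAA (in 12.4% of all). Looser spellings were not counted, and the Casq2 sequence above holds a run of letters that a looser MEF2 pattern would match. The search therefore does not show that these windows lack MEF2 or CArG sites.

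Ryr1, the release channel itself (ENSMUSG00000030592.18, chromosome 7, 29003344 to 29125179, minus strand), had a wide spread within groups. Its control libraries held 1074, 1293 and 1053 CPM, and its SFr libraries 654.7, 711.8 and 983.5 CPM. These groups do not overlap, although SFr replicate 3 lies far above the other SFr libraries. The fall of 0.54 on the log2 scale (SE 0.14) passed the test (adjusted p = 0.00262), but not when only the groups compared were fitted (adjusted p = 0.102). With D-galactose present, SFr_Dgal had 989.1, 781 and 1079 CPM and Dgal 943.9, 1027 and 1074 CPM. The groups overlap, and the difference of -0.096 has an approximate 95% interval of -0.36 to 0.17 (adjusted p = 0.614).

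The coefficient of variation of Ryr1 within groups had a median of 9.84% and reached 22.4%, while the medians of the other 9 genes ran from 1.3% to 4.63%. Its longest transcript has 15358 bases, the longest of the 10. A long-transcript index was therefore computed for each library, as the median log2 deviation of 318 genes with transcripts of at least 10000 bases, the 10 genes left out. The index averaged -0.16 in SFr, from -0.26 to 0.00, and 0.10 in control, from 0.00 to 0.21. The deviations of Ryr1 from its group means had a Pearson r of 0.893 with the index over the 30 libraries, which share their depth and scaling. Dst, Hspg2, Macf1 and Dync1h1, all genes of long transcripts, were among those with deviations most like those of Ryr1, with r from 0.967 to 0.975. Median r was 0.758 over 266 genes with such transcripts and -0.188 over 1747 genes with transcripts under 2000 bases.

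With the index as a covariate in the fit, the Ryr1 difference between SFr and control was -0.15 ± 0.075 and no longer passed the test (adjusted p = 0.13). The Cacnb1 rise was also lost there (0.09 ± 0.045, adjusted p = 0.0944). The other calls of SFr against control kept their direction and passed: Cacna1s at -0.80, Casq1 at -0.82, Casq2 at -0.69, Trdn at -0.49, Atp2a1 at -0.47, Jph1 at -0.43 and Atp2a2 at 0.18, with adjusted p of at most 0.00013. For SFr_Dgal against Dgal the same 9 genes passed, with Cacna1s at -0.66 and Casq1 at -0.75. The index comes from the same libraries and averaged lower in SFr (-0.16) than in control (0.10). An effect of the saponin fraction on long transcripts and a technical shift can therefore not be told apart by this fit.

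**Figure D3:**
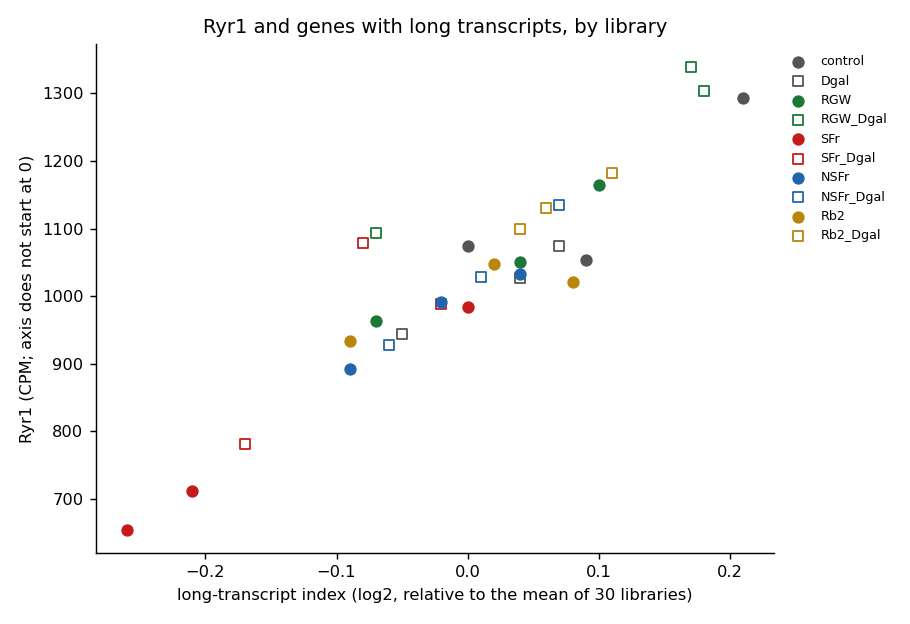
Ryr1 in CPM (y axis, which does not start at 0) against the long-transcript index on a log2 scale (x axis), 1 point per library, with colours for preparations and squares for D-galactose. Libraries with a low index have low Ryr1, and SFr replicates 1 and 2, at 654.7 and 711.8 CPM, lie at the lowest index values.

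The saponin fraction was also set against the other mass-matched preparations. At 100 µg/mL without D-galactose, SFr differed from RGW in 8 of the 10 genes, where 39.1% of all genes were called, and from NSFr in 8, where 40.4% were. Cacna1s was 1.11 ± 0.043 lower on the log2 scale than in RGW (adjusted p = 1.18e-20), whose libraries held 565.5, 511.7 and 526.5 CPM. Against NSFr, with 511.7, 521.5 and 516.7 CPM, the SFr level was 0.48 times as high (adjusted p = 3.16e-20). With D-galactose, SFr_Dgal differed from RGW_Dgal in all 10 genes (38.2% of all genes called) and from NSFr_Dgal in 8 (41.0%). Leaving out 1 library left 7 to 10 of the 10 calls against RGW_Dgal: those of Ryr1, Cacnb1 and Jsrp1 were lost without RGW_Dgal replicate 1 (adjusted p = 0.0828, 0.24 and 0.145) or replicate 2 (0.101, 0.0888 and 0.054). Cacnb1 was also lost without any 1 of the SFr_Dgal libraries (0.0546 to 0.196), Ryr1 without SFr_Dgal replicate 2 (0.14) and Jsrp1 without SFr_Dgal replicate 3 (0.289). With only these groups fitted Ryr1 (0.0637), Cacnb1 (0.132) and Jsrp1 (0.13) were lost, as they were with the long-transcript index as a covariate (0.266, 0.301 and 0.234), where Ryr1 stood at -0.105. Cacnb1 was also lost with RLE scaling (0.0534) and DESeq2 (0.057). In SFr against RGW, 6 to 9 calls were left, the fewest without SFr replicate 2, where Ryr1 (0.0648) and Atp2a2 (0.0642) did not pass. Ryr1 was also lost there without SFr replicate 1 (0.0991) or RGW replicate 1 (0.0727), with only these groups fitted (0.159) and with the index (0.071), and Atp2a2 with only these groups fitted (0.0508). Rb2 was dosed in µM and not by mass, so the tests of the saponin fraction against it that were run are not given, and its values stand beside the others: Cacna1s had 464.7, 448.4 and 440.5 CPM in Rb2 and 446.9, 477.8 and 484.6 CPM in Rb2_Dgal.

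Across the 24 libraries without the saponin fraction, Cacna1s ranged from 433.7 to 565.5 CPM and across the 6 with it from 232 to 280.8 CPM. The corresponding ranges were 310 to 404.5 against 185.2 to 222.7 CPM for Casq1, and 1280 to 1583 against 914 to 1007 CPM for Casq2. For Atp2a1 they were 1720 to 2046 against 1252 to 1364 CPM, and for Jph1 140.3 to 154.8 against 108.3 to 122.9 CPM. Ryr1, Trdn, Cacnb1, Atp2a2 and Jsrp1 overlapped between these sets of libraries.

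RGW alone raised 2 of the 10 genes, against 3.21% of all genes called and 2.04% called higher. Cacna1s was at 1.16 times its control mean (0.21 ± 0.043, adjusted p = 0.00278), and Atp2a1, with 2012, 1970 and 2046 CPM, at 1.1 times (0.13 ± 0.035, adjusted p = 0.0262). Neither call held when only RGW and control were fitted (adjusted p = 0.0542 and 0.178). The Atp2a1 call was lost without control replicate 1 (adjusted p = 0.171), RGW replicate 1 (0.0871) or RGW replicate 3 (0.112). NSFr raised Cacna1s (0.16 ± 0.043, adjusted p = 0.0139), 1 of 10 genes against 8.08% of all genes called and 4.56% called higher, a call lost without control replicate 1 (0.0913) or NSFr replicate 2 (0.0532). Rb2 alone changed 0 of the 10 genes at an adjusted p under 0.05, against 1.53% of all genes. At an unadjusted p under 0.05 there were 3, a threshold at which the share of all genes is not given. DESeq2 called 1, Atp2a1 (0.12, adjusted p = 0.0396). These comparisons share the control libraries.

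With D-galactose present, RGW_Dgal was above Dgal in Cacna1s and Casq1, 2 of 10 genes against 5.06% of all genes called and 2.52% called higher. Cacna1s had 500.7, 507.4 and 483.3 CPM against 433.7, 438.2 and 455.1 CPM (0.17 ± 0.043, adjusted p = 0.0153). Casq1 had 350.5, 344.2 and 366.9 CPM against 316.8, 316.7 and 322.9 CPM (0.15 ± 0.039, adjusted p = 0.0196). The groups of both genes were apart, as were those of 21.7% of all genes, but the calls rest on few libraries. Cacna1s was lost without Dgal replicate 1 (adjusted p = 0.0657), Dgal replicate 2 (0.0588) or RGW_Dgal replicate 2 (0.0821), and Casq1 without Dgal replicate 1 (0.0605), Dgal replicate 2 (0.0655) or RGW_Dgal replicate 3 (0.106). NSFr_Dgal and Rb2_Dgal against Dgal gave 0 calls each among the 10 genes (6.33% and 2.26% of all genes called), and 3 each at an unadjusted p under 0.05. The share of all genes at that unadjusted threshold is not given. DESeq2 called 1 gene in Rb2_Dgal, Atp2a1 (0.12, adjusted p = 0.0219), and none of the 10 in NSFr_Dgal.

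D-galactose alone changed 3 of the 10 genes, where 25.1% of all genes were called, and the median over the 10 was -0.066. Casq1 fell from 369.9, 351.7 and 360.7 CPM in control to 316.8, 316.7 and 322.9 CPM (-0.18 ± 0.039, adjusted p = 0.000957). Trdn fell from 83.37, 76.65 and 74.93 CPM to 72.32, 67.02 and 67.42 CPM (-0.19 ± 0.055, adjusted p = 0.0121). Cacnb1 rose from 355.4, 331.2 and 348.3 CPM to 368.4, 414 and 374.2 CPM (0.16 ± 0.041, adjusted p = 0.00417). None of the 3 overlapped between groups. Without regard to calls, groups did not overlap for 4 of the 10 genes, near the 36.1% of all genes tested. The Trdn call was lost without control replicate 1 (adjusted p = 0.0992), Dgal replicate 2 (0.0614) or Dgal replicate 3 (0.0542), and the Cacnb1 call without Dgal replicate 2 (0.0763). Ryr1, the voltage sensor Cacna1s, both pumps, Casq2, Jph1 and Jsrp1 did not pass in the main fit. Atp2a2 did pass with DESeq2 (0.0749, adjusted p = 0.0426). With the long-transcript index as a covariate, Atp2a2 (0.08, adjusted p = 0.0469) and Casq2 (-0.09, adjusted p = 0.0206) passed. For Atp2a1 the approximate 95% interval was -0.067 to 0.069 and for Jph1 -0.086 to 0.065. Of the 8 markers of myoblasts and dividing cells 6 fell and 1 rose with D-galactose, against 13.1% and 11.9% of all genes. The sum of these markers was 137.3 to 146.1 CPM in Dgal against 225.2 to 234.7 CPM in control. In each of the 4 backgrounds with a preparation the sums with D-galactose also lay below those without. Their part in the changes above was not tested.

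The effect of D-galactose could be read in 5 backgrounds that share no library: vehicle and the 4 preparations. Cacnb1 rose in 5 of 5, by 0.16, 0.18, 0.19, 0.16 and 0.22 on the log2 scale in vehicle, RGW, SFr, NSFr and Rb2, with adjusted p of at most 0.00912. In each background its 3 libraries with D-galactose lay above the 3 without. Groups did not overlap, in either direction, for 36.1%, 30.2%, 32.6%, 32.9% and 39.6% of all genes in these backgrounds. Of all genes, 11.9%, 6.30%, 8.46%, 5.76% and 9.81% were called higher. Casq1 fell in 5 of 5, by 0.18, 0.14, 0.15, 0.13 and 0.11, again without overlap, with 13.1%, 8.93%, 10.5%, 6.98% and 11.2% of all genes called lower. The Casq1 calls outside vehicle have adjusted p from 0.00707 to 0.0485. With Rb2, the smallest, the call was lost without Rb2 replicate 1 (0.0713), Rb2 replicate 3 (0.278), Rb2_Dgal replicate 1 (0.131) or Rb2_Dgal replicate 2 (0.166). With NSFr it was lost without NSFr replicate 2 (0.0651), NSFr replicate 3 (0.0688) or NSFr_Dgal replicate 1 (0.182). With RGW it was lost without RGW replicate 3 (0.096) or RGW_Dgal replicate 2 (0.0836), and with SFr without SFr replicate 2 (0.0666) or SFr_Dgal replicate 1 (0.0742). When only the groups compared were fitted, the Casq1 call was lost with RGW (0.0694) and with SFr (0.0731). The Rb2 call was also lost without the filter (0.0649) and with the long-transcript index as a covariate (0.063). Whether the control and preparation-alone cultures were as old as those with D-galactose is not stated, so time and D-galactose cannot be told apart in any of the 5 backgrounds.

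Casq2 fell with D-galactose after RGW (-0.17 ± 0.036, adjusted p = 0.000862) and after Rb2 (-0.13 ± 0.036, adjusted p = 0.0105), the latter call being lost without Rb2 replicate 3 (0.0872) or Rb2_Dgal replicate 2 (0.0577). Trdn fell after RGW (-0.18 ± 0.054, adjusted p = 0.0204) and after Rb2 (-0.15 ± 0.054, adjusted p = 0.0474). Its RGW call was lost without RGW replicate 1 (0.119) or RGW_Dgal replicate 2 (0.113). Its Rb2 call was lost without Rb2 replicate 2 (0.0581) or replicate 3 (0.323), or without Rb2_Dgal replicate 1 (0.101) or replicate 2 (0.31). That call was also lost without the filter (0.0572), with the replicate block (0.0556) and with DESeq2 (0.0558). The same held with only the groups compared (0.0755) and with the long-transcript index as a covariate (0.0688). In all, 4 of 10 genes were called after RGW (15.2% of all genes), 6 after SFr (19.0%), 2 after NSFr (12.7%) and 4 after Rb2 (21.0%).

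After the saponin fraction, D-galactose raised 5 of the 10 genes and lowered Casq1. The largest rise was in Atp2a2, from 2119, 2112 and 2005 CPM to 2450, 2465 and 2505 CPM (0.25 ± 0.031, adjusted p = 3.81e-07). The groups are well apart. The others were Cacnb1, Jsrp1 (0.19 ± 0.061, adjusted p = 0.0258), Cacna1s (0.13 ± 0.043, adjusted p = 0.0294) and Jph1 (0.12 ± 0.039, adjusted p = 0.0297). The last 3 of these did not pass when only SFr and SFr_Dgal were fitted, with adjusted p of 0.0953, 0.0804 and 0.0634. Leaving out 1 of those libraries left 3 to 5 of the 6 calls, and Jsrp1 without SFr_Dgal replicate 3 stood at 0.11 (adjusted p = 0.203). Jsrp1 and Jph1 were lost without SFr replicate 1 (0.0764 and 0.0804) or SFr replicate 3 (0.0878 and 0.0503). Cacna1s was lost without SFr replicate 1 (0.182), SFr_Dgal replicate 1 (0.105) or SFr_Dgal replicate 2 (0.0618), and Jph1 also without SFr_Dgal replicate 1 (0.086) or replicate 2 (0.107).

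**Figure D4:**
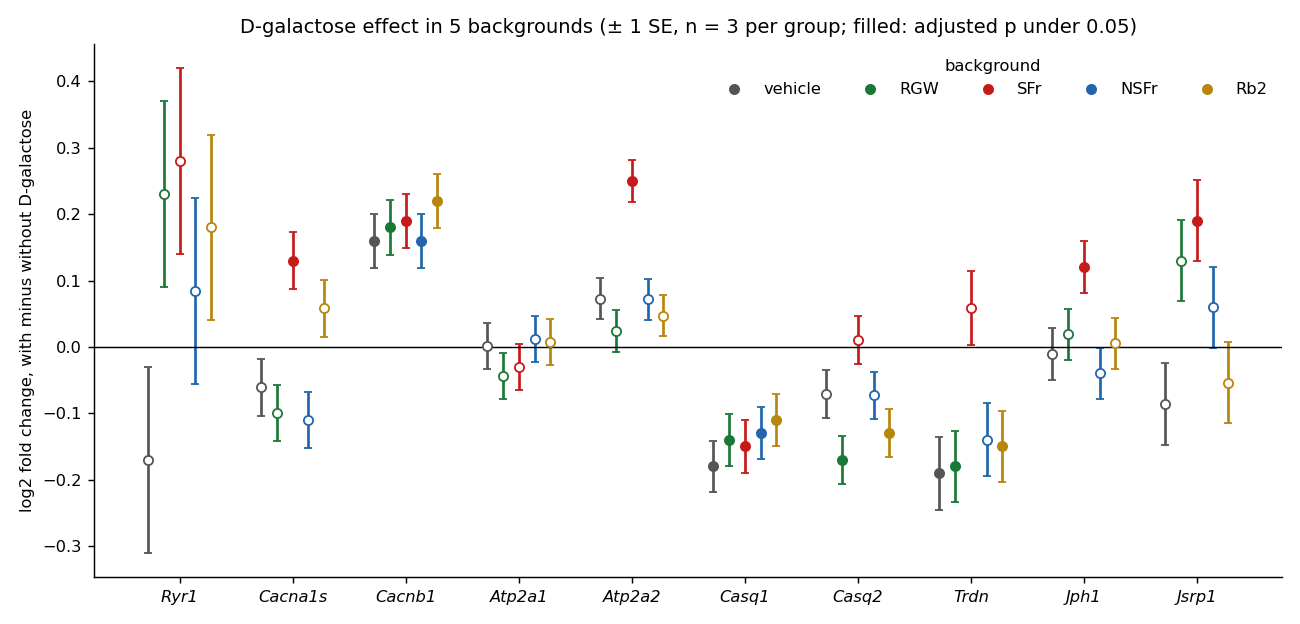
Log2 fold change with minus without D-galactose (y axis) for each gene (x axis) in 5 backgrounds, with bars of 1 standard error and 3 libraries per group, filled where the adjusted p is under 0.05. Cacnb1 is above 0 and Casq1 below 0 in every background with all points filled, and Atp2a2 is filled only in the SFr background, at 0.25.

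Whether the D-galactose effect differed between backgrounds was tested directly. In the test over all 5 backgrounds, Atp2a2 was the only 1 of the 10 genes called (adjusted p = 0.0209), against 0.796% of all genes, with D-galactose effects of 0.073, 0.024, 0.25, 0.072 and 0.047 in vehicle, RGW, SFr, NSFr and Rb2. That call was lost without SFr replicate 3 (0.132), SFr_Dgal replicate 2 (0.0623) or SFr_Dgal replicate 3 (0.0746). Cacna1s stood at an adjusted p of 0.0703, and Cacnb1 and Casq1 at 0.943 and 0.917. Cacna1s did pass with DESeq2 (0.0164), without the filter (0.0444) and with the long-transcript index as a covariate (0.00587). It also passed without control replicate 1 (0.0382), RGW replicate 2 (0.0499) or Rb2_Dgal replicate 1 (0.0443). Against vehicle alone, the SFr background gave a difference of 0.18 ± 0.044 for Atp2a2 (adjusted p = 0.0527), 0.25 ± 0.078 for Trdn (0.14) and 0.28 ± 0.087 for Jsrp1 (0.14). In the main edgeR fit 0 of the 10 genes passed there, while 0.583% of all genes did. At an unadjusted p under 0.05 there were 6 of the 10, and the share of all genes at that threshold is not given. DESeq2 called 1, Atp2a2 (adjusted p = 0.00318). In edgeR, Atp2a2 also passed with RLE scaling (0.0442) or without control replicate 1 (0.0271), and Jsrp1 without control replicate 3 (0.0418). With the long-transcript index as a covariate, Atp2a2 (0.17, adjusted p = 0.026), Trdn (0.29, adjusted p = 0.0355) and Jsrp1 (0.35, adjusted p = 0.018) passed. The RGW, NSFr and Rb2 backgrounds gave 0 calls among the 10 genes, and 0%, 0.0410% and 0% over all genes. At an unadjusted p under 0.05 these backgrounds gave 2, 0 and 0 of the 10, again with no share of all genes given, and DESeq2 called 0 in each.

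The ratio of the pump genes restates their opposite changes within each library and is given as a description. The ratio of Atp2a1 to Atp2a2 counts was 0.984, 0.99 and 0.989 in control and 0.597, 0.646 and 0.662 in SFr. In Dgal it was 0.959, 0.929 and 0.931, and in SFr_Dgal 0.53, 0.537 and 0.5. The saponin groups lie below all others, with log2 differences of -0.64 ± 0.046 from control and -0.85 ± 0.035 from Dgal. No exact two-sided permutation p of 3 against 3 libraries can be under 0.1, so that test decides nothing here. Rb2 had the highest mean ratio, 1.09 ± 0.0271 (SD, n = 3), and Rb2_Dgal 1.06 ± 0.0356.

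The ratio of Casq1 to Casq2 moved less. It was 0.245 ± 0.00476 in control (SD, n = 3), 0.227 ± 0.0084 in Dgal, 0.225 ± 0.000776 in SFr and 0.202 ± 0.00915 in SFr_Dgal. RGW and RGW_Dgal, at 0.262 ± 0.00455 and 0.268 ± 0.00799, and NSFr, at 0.263 ± 0.00608, lay above control. Rb2 lay below it at 0.222 ± 0.00256. The largest log2 difference was 0.24 ± 0.04 for RGW_Dgal against Dgal.

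**Figure D5:**
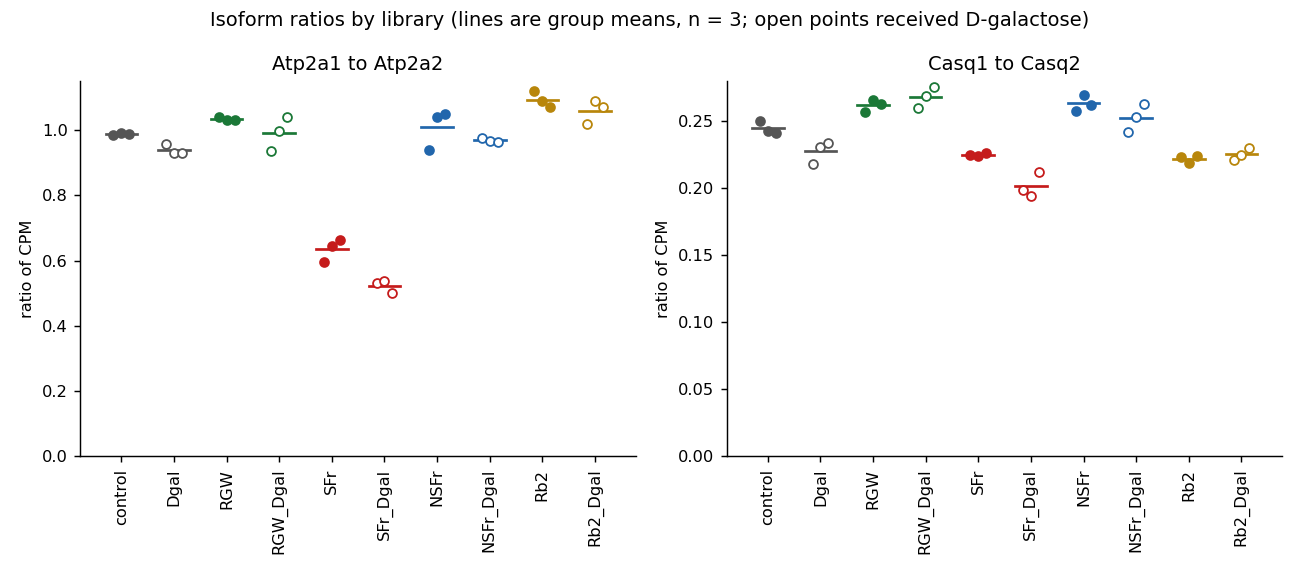
Ratio of CPM of Atp2a1 to Atp2a2 (left) and Casq1 to Casq2 (right) in each library, with lines at the means of 3 libraries and open points for D-galactose. The SFr and SFr_Dgal libraries have pump ratios of at most 0.662 and all other groups have means of 0.94 or more, while the calsequestrin ratio stays between 0.194 and 0.276.

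Levels of the genes were also correlated with each other. Over the 30 libraries, Cacna1s had a Pearson r of 0.953 with Casq1 and 0.948 with Atp2a1, and Atp2a1 had -0.794 with Atp2a2. Within groups, as deviations from group means, these were -0.143, 0.566 and -0.0261. Casq2 and Trdn (0.64), Casq1 and Trdn (0.627), Casq1 and Casq2 (0.621) and Atp2a1 and Jph1 (0.604) had the highest r within groups, and all of these libraries share scaling. The 5 other genes most like the mean of the 10, out of 9642 compared, were Ckm (muscle creatine kinase, r = 0.93), Fndc5 (0.928), Myh7 (slow myosin heavy chain, 0.924), Vasp (0.918) and Tspan13 (0.917). These values also carry the split between libraries with and without the saponin fraction.

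Other genes of the triad, the junction of transverse tubule and reticulum, were taken as a list of 14. In SFr against control 10 of them fell and 3 rose, with a median of -0.34, where 21.8% of all genes fell and 21.3% rose. Cav3, caveolin-3, fell from 101.8 ± 10.2 to 68.51 ± 1.9 CPM (SD, n = 3; log2 fold change -0.57 ± 0.054, adjusted p = 1.01e-10). Stac3, an adaptor of the voltage sensor, went from 53.95 ± 2.77 to 37.81 ± 1.24 CPM (-0.52 ± 0.048). Dysf, dysferlin, went from 190.1 ± 8.17 to 133.9 ± 9.94 CPM (-0.50 ± 0.044). The rises were in Bin1, which shapes the tubule membrane, Fkbp1a and Tmem38a. With the long-transcript index as a covariate 9 fell and 1 rose, Bin1 (0.26 ± 0.034, adjusted p = 3.22e-08). In SFr_Dgal against Dgal 7 fell and 3 rose, against 21.0% and 20.3% of all genes, with Bin1 at 2155 ± 68.4 against 1604 ± 22.7 CPM (0.43 ± 0.034, adjusted p = 1.28e-12) and Srl, sarcalumenin of the store, at 730.7 ± 28.6 against 959.7 ± 8.49 CPM (-0.39 ± 0.035). In Dgal against control 4 of 14 fell and 0 rose, against 13.1% and 11.9% of all genes, with Stac3 at -0.32 ± 0.048 (adjusted p = 4.55e-06). Without control replicate 1, and also when only Dgal and control were fitted, 2 fell.

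Relatives of the channels and the pump were less uniform. Of 9 tested channel genes, 4 were called in SFr, a share near the 43.1% of all genes, and 2 rose and 2 fell: Ryr3, a release channel that young muscle also makes, fell by 0.61 on the log2 scale (SE 0.12) and Cacna2d1 by 0.35 (SE 0.044), while Cacng1, the gamma subunit of the muscle channel, rose by 0.33 (SE 0.046). Without SFr replicate 3, 4 of the 9 fell. Ryr3 has a longest transcript of 15468 bases, and with the long-transcript index as a covariate its fall was 0.27 (SE 0.070, adjusted p = 0.00183) and that of Cacna2d1 0.21. There 4 of the 9 rose: Cacng1, Cacnb3, Itpr3 (adjusted p = 0.00331) and Cacnb2 (adjusted p = 0.0478). Cacng1 also rose in Dgal (0.31 ± 0.046, adjusted p = 5.23e-06) and in SFr_Dgal against Dgal (0.25 ± 0.045). Atp2a3, another SERCA gene, rose from 3.675 to 6.215 CPM in SFr (0.76 ± 0.10, adjusted p = 2.31e-07) but stayed far below the other pumps. Sln and Pln, small inhibitors of the pump, had at most 0.105 and 0.156 CPM and were not tested.

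Calcium entry and removal across the surface membrane gave mixed counts. Of 6 store-operated entry genes, 3 fell in SFr, with Stim1, the calcium sensor of the store, at 86.81 ± 1.43 against 108.4 ± 5.65 CPM (-0.32 ± 0.048, adjusted p = 1.08e-06), and 1 rose, where 21.8% of all genes fell and 21.3% rose. That rise, in Orai2, was lost without SFr replicate 1 or replicate 3. Among 9 extrusion and mitochondrial uptake genes, 2 fell and 1 rose, where 43.1% of all genes were called. Atp2b1, a calcium pump of the surface membrane, rose from 229.7 ± 7.35 to 308.2 ± 5.85 CPM (0.42 ± 0.037, adjusted p = 1.28e-11), and Atp2b4, another, fell from 194.1 ± 18.6 to 135.6 ± 14 CPM (-0.52 ± 0.085, and -0.24 ± 0.040 with the index as a covariate). With the index 2 rose, with Slc8a1 (adjusted p = 0.0242) called in addition.

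Among 14 calcium buffers and effectors, 4 fell and 2 rose in SFr, a share near the 43.1% of all genes called. Camk2b and Camk2a, subunits of a calcium-dependent kinase, fell by 0.71 (SE 0.074) and 0.64 (SE 0.048). Calr, the store protein calreticulin, fell in SFr (-0.24 ± 0.034) and in Dgal (-0.20 ± 0.034, adjusted p = 4.97e-05), where 6 of the 14 fell (13.1% of all genes) and Rcan1, a calcineurin regulator, rose (0.23 ± 0.039).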

How the data were processed

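Per the labels' protocols, strand-marking MGIEasy libraries of poly(A) RNA were read from both ends on the DNBSEQ platform. The deposited table holds expected counts per gene, not normalized, estimated by the authors with RSEM 1.3.3 after STAR 2.7.9a, Trim Galore 0.6.10 and FastQC 0.11.9 on GRCm38, per the submitters' processing notes. RSEM shares out reads that fit more than 1 gene, and 19.4% of the values were not whole. No source used here gives the gene annotation or the strand setting, so reads of overlapping genes may be mixed. Of 16025 symbols, 16021 matched GENCODE vM21, the source of coordinates and transcript lengths.

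Expected counts were rounded. A count of 3 equals 0.0993 to 0.135 CPM. Replicates of a group differed by more than sampling noise, and no libraries were merged. Groups were compared with the robust quasi-likelihood F-test of edgeR 4.0.16 in R 4.3.3, with TMM scaling and filterByExpr, in 1 group model over all 30 libraries. The biological coefficient of variation was 4.25%. Calls are at a Benjamini-Hochberg adjusted p under 0.05 over 12184 genes, and standard errors were worked back from the log2 fold change and F. Ratios were set against each other by exact permutation, whose smallest p here is 0.1. Correlations and levels are descriptions.

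The alternatives were RLE scaling, no filter, DESeq2 1.42.0, the replicate block, only the groups compared, each library left out and, chosen after seeing the data, the long-transcript index as a covariate. In simulated data for Dgal against control, 64% of 50 genes changed 1.3-fold among 12184 and 82% of 50 changed 1.5-fold were recovered.

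The 10 genes and the lists were chosen with earlier results of these data known. Every one of the 10 is named. From each other list, the rule named up to 4 genes of largest change in a comparison with adjusted p under 0.05, at least 5 CPM over all libraries and no overlap, and the text gives some of these. Bin1, Fkbp1a and Tmem38a in SFr, Atp2a3, Orai2, Sln and Pln were named after their values were seen. Markers of 8 cell types were summed, of which those of nerve and bone cells had at most 8.412 and 9.82 CPM. Mrln, Strit1 and Mcub were not analysed here, and some genes that the rule names, with the list of membrane channels and pumps, are not reported here.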

Additional observations from a re-analysis of the deposited data

Results flagged for a closer look

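Atp2a2, the SERCA2 pump, is listed because its D-galactose effect differed over the 5 backgrounds (edgeR, adjusted p = 0.0209), with the largest effect, 0.25, after the saponin fraction and 3 of 3 libraries above those without D-galactose. The call was lost without SFr replicate 3 (adjusted p = 0.132), SFr_Dgal replicate 2 (0.0623) or SFr_Dgal replicate 3 (0.0746).

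Another test, of the D-galactose effect after the saponin fraction against that in vehicle, called 2 genes of the lists used beside the 10. It called 0.583% of all genes, and Atp2a2 did not pass it in the main fit. Atp1b1, the beta subunit of the sodium pump, differed by -0.31 ± 0.061 on the log2 scale between the saponin and vehicle backgrounds (adjusted p = 0.00552), with a D-galactose effect of 0.11 in vehicle and -0.20 after the saponin fraction. Myh3, embryonic myosin heavy chain and one of the myotube markers, differed by 0.44 ± 0.062 (adjusted p = 0.000124), with effects of -0.63 in vehicle and -0.18 after the saponin fraction. Fits with 1 library left out are not given for Atp1b1 and Myh3. No cause was tested for any of the 3 genes.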

How the results depend on the processing

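Of the single-gene results, 0 changed direction while past the threshold under any alternative run. The counts of calls among the 10 genes were 9 in SFr and 9 in SFr_Dgal, and stayed within 1.5 times under each alternative. They moved further elsewhere, and the cause was not tested. With only the groups compared, which leaves fewer samples, they were 0 in RGW, 1 in RGW_Dgal, 2 in NSFr_Dgal and 2 in Rb2_Dgal against Dgal, 2 in SFr_Dgal against SFr and 4 in NSFr_Dgal against NSFr. Over all genes, those fits called 87 in RGW (main fit 391) and 349 in RGW_Dgal against Dgal (main fit 617). They called 1020 in NSFr_Dgal (771) and 365 in Rb2_Dgal against Dgal (275). In SFr_Dgal against SFr they called 1428 (2315), and in NSFr_Dgal against NSFr 1893 (1553). Without the filter the counts among the 10 were 2 in Rb2_Dgal against Rb2 and 2 over the 5 backgrounds. Over all genes they were 2318 (2562) and 101 (97) there. For the alternatives below, calls over all genes are not given. DESeq2 gave 1 in Rb2, 1 in Rb2_Dgal against Dgal, 1 in the saponin against the vehicle background (as did RLE scaling) and 2 over the 5 backgrounds. With the long-transcript index the counts were 5 in Dgal, 3 in NSFr, 1 in NSFr_Dgal and 1 in Rb2_Dgal against Dgal, 2 in Rb2_Dgal against Rb2, 3 in the saponin against the vehicle background and 2 over the 5 backgrounds. Leaving out a library gave 1 to 3 calls in Dgal, 1 to 2 in RGW, 0 to 1 in NSFr, 0 to 2 in RGW_Dgal against Dgal, 2 to 4 in RGW_Dgal against RGW, 3 to 5 in SFr_Dgal against SFr, 1 to 2 in NSFr_Dgal against NSFr, 1 to 4 in Rb2_Dgal against Rb2, 0 to 1 in the saponin against the vehicle background and 0 to 2 over the 5 backgrounds. Numbers do not pair the libraries: of 135 pairs with the same number, 8 had deviations correlated above 0.1, with a median r of 0.00386, and 10 of 30 libraries were closest to their own number. The replicate block moved the count to 1 in Rb2_Dgal against Dgal (Atp2a1, adjusted p = 0.0486). The test over the 5 backgrounds uses all groups, so a fit with only the groups compared was not run for it. Depth limits none of the 10 genes, each with at least 1502 counts per library.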
